A study of Mus musculus with 9 samples.

Results

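Activated fibroblast matrix genes are here 9 of the 21989 gene symbols in the deposited expression table: Postn, Cilp, Tnc, Sparc, Spp1, Fn1, Cthrc1, Meox1 and Fap. They were listed by symbol, as genes that fibroblasts are known to use when a pressure-loaded heart lays down matrix, with earlier results of these data known. Heart RNA was sequenced from 9 mice, all male C57BL/6J and 18 to 20 weeks old, with 3 mice in each of 3 groups. The LD mice had undergone TAC and received Lingguizhugan decoction, a Chinese herbal preparation. The TAC mice had the same operation and received distilled water. The abbreviation commonly stands for transverse aortic constriction, a narrowing that makes the left ventricle pump against a higher pressure. The sham mice had a sham operation and received distilled water. The labels give no time between operation and collection, no dose, and no litter, cage or sequencing batch. They call the 3 samples of a group biological repeats. By its title the study asked how the decoction acts in heart failure through the MAPK and AKT pathways.

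When a heart is loaded with pressure, resident fibroblasts become activated: they divide, turn contractile and secrete matrix, which stiffens the muscle. TGF-beta and mechanical strain are the best known inducers of this state. The 9 genes cover several roles in it. Postn (periostin), Tnc (tenascin C), Sparc (osteonectin) and Spp1 (osteopontin) encode matricellular proteins, which signal to cells through integrins or shape collagen without being structural fibres. Fn1 encodes fibronectin, on which other matrix assembles. Cilp encodes a matrix protein known to bind TGF-beta and restrain it. Cthrc1 encodes a secreted glycoprotein of activated fibroblasts, Fap a protease on their surface, and Meox1 a homeobox transcription factor known in mice to act in this switch. Several are not exclusive to fibroblasts: macrophages make Spp1 and Fn1, and endothelial cells make Sparc. In whole tissue, fewer cells of a type and less RNA per cell cannot be told apart.

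The values were FPKM (fragment counts divided by gene length and sequencing depth), so levels of different genes can be compared per length. Whole fragments could be recovered from the steps of the values, and library totals were 7.42 to 18.1 M in LD, 8.40 to 14.9 M in TAC and 14.5 to 18.1 M in sham. All 18 cardiomyocyte markers and all 20 resident fibroblast markers in the list were detected at 1 FPKM or more in at least 3 libraries. Along the first principal component, TAC replicate 3 scored -51.0 and LD replicate 3 scored 48.3, while the other libraries lay between -10.4 and 17.1. The libraries also fell into 2 kinds by counting. In TAC replicates 2 and 3 and in sham replicates 1 and 3, between 83.8% and 90.2% of genes with 1 to 20 fragments had an even number of fragments. In the 5 other libraries, which are all 3 LD libraries, TAC replicate 1 and sham replicate 2, this share was 41.5% to 54.1%. Above 1000 fragments, 49.2% to 55.5% of genes had an even number in every library. The labels record no difference in handling between the libraries with even small counts and the others. No LD library has even small counts. Values within the 5 other libraries are therefore given below for the 7 tested members in TAC against sham and LD against TAC, and for some of the other lists and genes. TAC and sham then have 1 library each, and the spread between libraries comes from LD alone.

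Levels of the 9 genes differed widely. Sparc was the most abundant in each group, with a mean of 135 ± 26.7 FPKM in LD, 192 ± 68.5 FPKM in TAC and 186 ± 98.6 FPKM in sham (SD, n = 3 each). Postn, Cilp and Meox1 had group means between 3.49 and 82.4 FPKM. The order of the means of these 3 genes differed between groups. In TAC their ranges overlapped, in LD Cilp overlapped both others, and in sham Postn overlapped Meox1. Those parts of the order lie within the spread between mice. Without overlap, Cilp was below the others in sham and Postn was above Meox1 in LD. Fn1 and Fap had group means between 2.39 and 7.62 FPKM, Spp1 between 0.271 and 1.95 FPKM, and Tnc and Cthrc1 stayed below 1 FPKM in every library. A gene entered the test with at least 1 FPKM in at least 3 of the 9 libraries, and 7 of the 9 did. Tnc and Cthrc1 did not, and Spp1 did through 4 libraries, LD replicate 1 and all 3 TAC libraries, mostly those in which it is high.

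**Figure D1:**
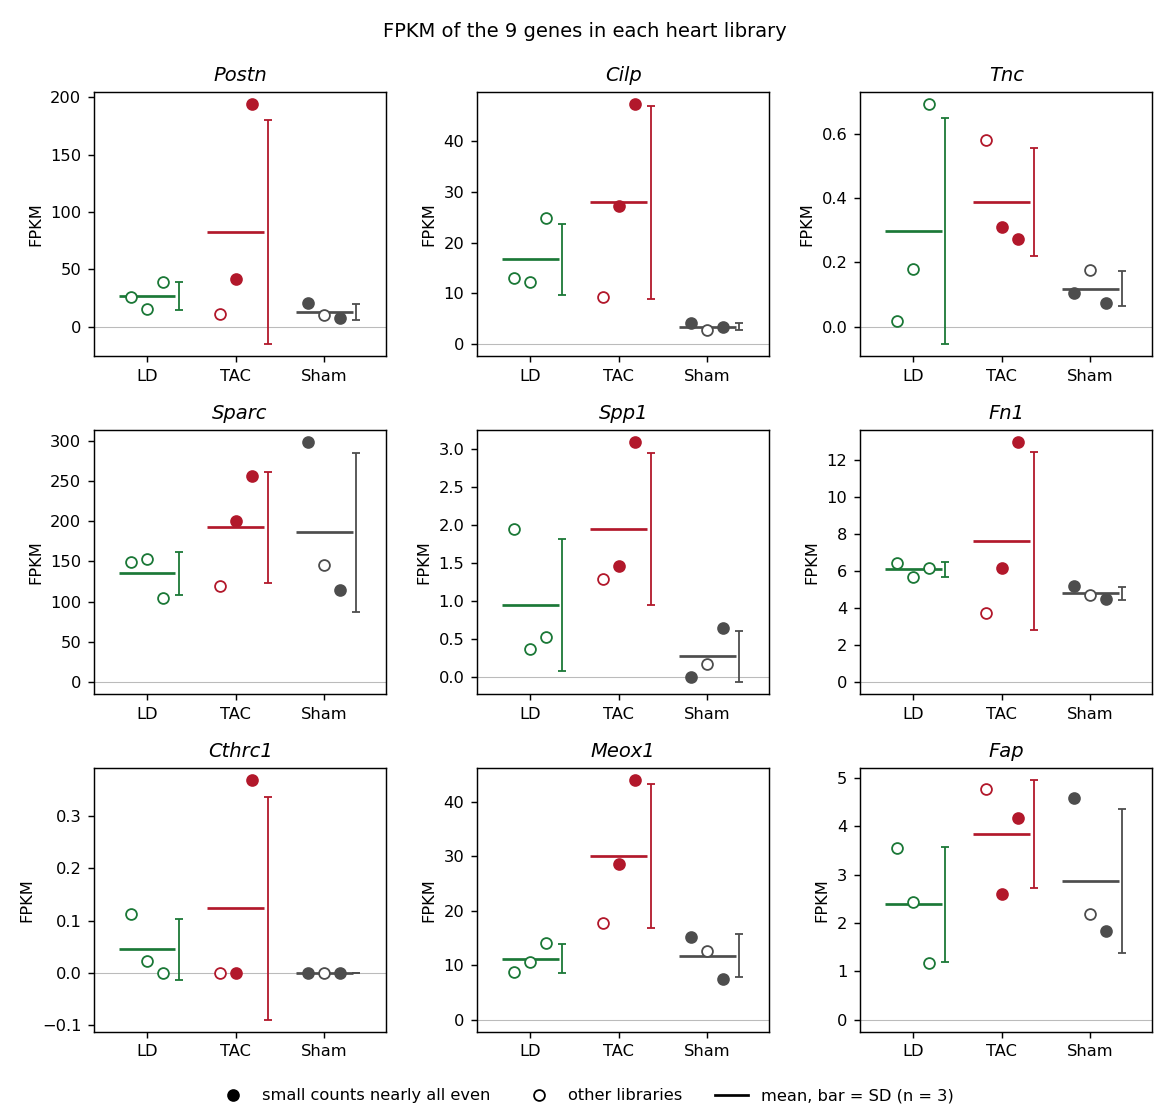
FPKM of each of the 9 genes in the LD, TAC and sham heart libraries, with the mean as a line and the SD as a bar (n = 3 mice each). Filled points are the 4 libraries whose small fragment counts were nearly all even. TAC replicate 3 holds the highest point for Postn (194 FPKM), Cilp, Spp1, Fn1 and Meox1, and TAC replicate 1 lies among the sham or LD values for Postn (11.4 FPKM) and Sparc (120 FPKM).

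TAC hearts were set against sham hearts to see what the operation did to these genes. Cilp, Meox1, Spp1 and Postn had higher means in TAC, by 2.56-fold for Meox1, 6.42-fold for Postn, 7.18-fold for Spp1 and 7.99-fold for Cilp. Means of Sparc, Fn1 and Fap were 1.03-fold, 1.59-fold and 1.34-fold those in sham. No gene of the 11380 tested passed an adjusted p of 0.05 in limma's test, a share of 0%, and therefore none of these 7 did, while 618 genes had an unadjusted p under 0.05 and limma's voom on recovered fragments called 4. All 7 had a difference above 0, where 50% of all genes tested did. Their median difference was 1.20 on the log2(FPKM + 1) scale, against -0.00 over all genes tested. Within the 5 libraries without even small counts the median was 0.47 and 5 of the 7 were above 0, with Sparc and Fn1 both at -0.27. Spp1 could enter the test only by being high in TAC, and without it the median over all 9 libraries was 0.84.

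Cilp (chr9:65265180-65280605, plus strand, GRCm38) stood furthest from sham. It had 9.34, 27.2 and 47.2 FPKM in TAC replicates 1 to 3, against 4.20, 2.82 and 3.46 FPKM in sham. The lowest TAC heart lay above the highest sham heart. Its log2 difference was 2.44 ± 0.45 (limma SE, 95% interval 1.47 to 3.40), with an unadjusted p of 9.72e-05 and an adjusted p of 0.138. Without TAC replicate 3 the difference was 1.94, and without TAC replicate 1 it was 3.05, at an adjusted p of 0.00464. Within the 4 libraries with even small counts it was 2.94 ± 0.37 (adjusted p = 0.0156), and within the others 1.44 ± 0.57 (adjusted p = 1.0).

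Postn, the gene most used to mark activated fibroblasts in the mouse heart (chr3:54361109-54391037, plus strand), was the most uneven. TAC hearts had 11.4, 41.7 and 194 FPKM, against 21.0, 9.86 and 7.70 FPKM in sham hearts. TAC replicate 1 lay within the sham range, replicate 2 above it, and replicate 3 stood far above both. The log2 difference was 1.88 ± 0.72 (limma SE, 95% interval 0.33 to 3.42), with an adjusted p of 0.829. Without TAC replicate 3 it was 0.85, and without TAC replicate 1 it was 2.84. Within the libraries with even small counts the difference was 2.72 ± 0.60, while TAC replicate 1 against sham replicate 2 gave 0.19 ± 0.61.

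Meox1, the transcription factor of the set (chr11:101877510-101894374, minus strand), separated the groups with less spread. It had 17.7, 28.5 and 44.1 FPKM in TAC and 15.3, 12.6 and 7.42 FPKM in sham. The groups did not overlap, though the gap between the nearest hearts was small beside the spread within TAC. The log2 difference was 1.25 ± 0.34 (limma SE, 95% interval 0.51 to 1.98), at an adjusted p of 0.634. It was 1.64 ± 0.39 within the libraries with even small counts and 0.47 ± 0.49 within the others.

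Spp1 (chr5:104435118-104441050, plus strand) was low throughout but also did not overlap. TAC hearts had 1.29, 1.46 and 3.10 FPKM from 18, 36 and 46 fragments. Sham hearts had 0, 0.166 and 0.648 FPKM from 0, 4 and 16 fragments, where a count of 0 allows up to 0.10 FPKM in sham replicate 1 by counting error alone. These counts come from both kinds of library, and whether a recovered fragment is the same unit in both is not known. Its log2 difference was 1.20 ± 0.38 (limma SE, 95% interval 0.38 to 2.01) at an adjusted p of 0.772, and the added 1 in the logarithm makes it understate the change of so low a gene. It was 1.31 ± 0.48 within the libraries with even small counts and 0.97 ± 0.70 within the others. In the annotation an exon of Gm42793 overlaps Spp1 on the same strand.

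Cilp, Meox1 and Spp1 are the 3 of the 7 tested genes whose TAC hearts all lay above all sham hearts, an arrangement met by 5.22% of the genes tested. Spp1 had to be high in TAC to be tested, so its place in these counts is set by the filter, and without it they are 2 of 6. For 0 of the 7 did all TAC hearts lie below all sham hearts, against 4.62% of the genes tested. At an unadjusted p under 0.05, 4 of the 7 were higher and 0 lower, where 2.85% of all genes tested were higher and 2.58% lower. Without Spp1, 3 of 6 were higher. Tnc, too low for the test, had the same arrangement, with 0.581, 0.310 and 0.272 FPKM in TAC and 0.105, 0.177 and 0.0729 FPKM in sham. These rest on 36, 34 and 18 fragments in TAC and 14, 19 and 8 fragments in sham, and an exon of 8030451A03Rik on the opposite strand overlaps Tnc. No step that marks the strand is named in the labels, so reads of such partners cannot be told apart. Cthrc1 had 8 fragments (0.370 FPKM) in TAC replicate 3 and 0 in the other TAC hearts and in all sham hearts, where 0 allows up to 0.0857 FPKM in sham and up to 0.148 FPKM in those TAC hearts.

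The remaining matrix genes overlapped between TAC and sham. Sparc had 120, 200 and 256 FPKM in TAC, against 298, 145 and 115 FPKM in sham, with sham replicate 1 the highest of all 9. Its log2 difference of 0.10 ± 0.35 (limma, 95% interval -0.65 to 0.86) turned to -0.14 without TAC replicate 3 and to -0.27 ± 0.43 within the libraries without even small counts. Fn1 had 3.74, 6.14 and 13.0 FPKM in TAC and 5.20, 4.70 and 4.50 FPKM in sham, so that TAC replicate 1 was the lowest and replicate 3 the highest of all libraries. Its difference was 0.43 ± 0.34 (limma, 95% interval -0.30 to 1.16) and -0.27 ± 0.49 within the libraries without even small counts, and an exon of Apol7d on the other strand overlaps it. Fap had 4.77, 2.60 and 4.16 FPKM in TAC, against 4.58, 2.18 and 1.84 FPKM in sham, a difference of 0.36 ± 0.36 (limma, 95% interval -0.41 to 1.13). It was 0.86 ± 0.63 within the libraries without even small counts. For each of these 3 the interval over all 9 libraries includes 0.

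**Figure D2:**
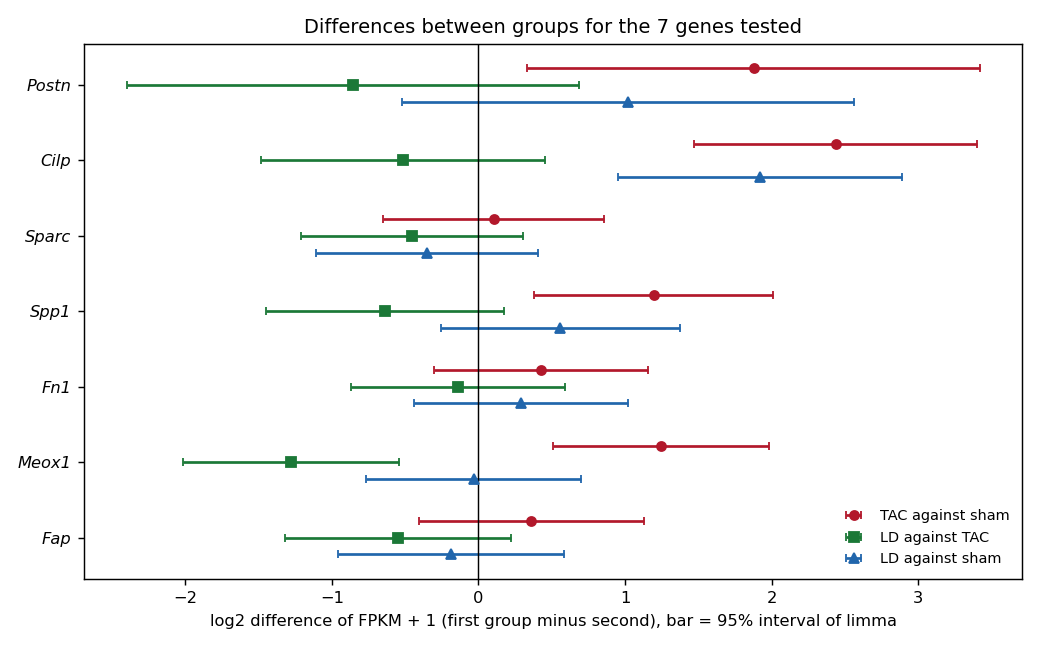
Log2 differences of FPKM + 1 for the 7 tested genes in TAC against sham, LD against TAC and LD against sham, as limma estimates with 95% intervals (all 9 libraries in 1 fit). The TAC intervals of Cilp, Postn, Spp1 and Meox1 lie above 0, the LD against TAC interval of Meox1 lies below 0, and the LD against sham interval of Cilp lies above 0. None passed after adjustment over 11380 genes.

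LD hearts were set against TAC hearts to see what the decoction did after the same operation. Meox1 was lower in LD, at 0.373 times the TAC mean, and it was the only one of the 7 whose groups did not overlap. The other 6 had lower means in LD too, at 0.324 to 0.798 times the TAC mean, with overlapping hearts. Again 0% of the genes tested passed an adjusted p of 0.05 in limma's test, while 1004 had an unadjusted p under 0.05 and voom called 0. The median difference of the 7 was -0.55 on the log2 scale, against -0.10 over all genes tested. None of the 7 had a difference above 0, where 39.6% of all genes tested did. This depended on the fit. Within the 5 libraries without even small counts, the median was 0.15 with 4 of the 7 above 0. TAC is replicate 1 alone there, so counting and the TAC heart used cannot be told apart. With counting as a term in the fit of all 9 libraries the median was -0.034 with 3 of the 7 above 0. The term is estimated from TAC and sham alone, as TAC replicate 1 and sham replicate 2 against the other libraries of these groups. At an unadjusted p under 0.05, 1 of the 7 was lower and 0 higher, where 6.31% of all genes tested were lower and 2.51% higher.

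Meox1 had 8.84, 10.7 and 14.1 FPKM in LD and 17.7, 28.5 and 44.1 FPKM in TAC. Every LD heart lay below every TAC heart, an arrangement met by 8.14% of the genes tested, while 3.73% lay wholly higher. The log2 difference was -1.28 ± 0.34 (limma SE, 95% interval -2.02 to -0.54), with an unadjusted p of 0.00225 and an adjusted p of 0.464. Within the libraries without even small counts, LD against TAC replicate 1 gave -0.64 ± 0.40. With counting as a term in the fit it was -1.03 ± 0.42. Set against sham, Meox1 in LD averaged 11.2 ± 2.69 FPKM and in sham 11.8 ± 3.99 FPKM (SD, n = 3 each), with a log2 difference of -0.03 ± 0.34 and a 95% interval of -0.77 to 0.70.

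Postn was not separable between LD and TAC. LD hearts had 26.1, 15.0 and 38.9 FPKM, against 11.4, 41.7 and 194 FPKM in TAC hearts. All 3 LD values lay inside the TAC range. The log2 difference of -0.86 ± 0.72 (limma, adjusted p = 0.703) rested on TAC replicate 3, without which it was 0.17. It was 1.07 ± 0.50 within the libraries without even small counts and 0.22 ± 0.74 with counting as a term.

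Cilp behaved likewise between these groups. LD hearts had 13.1, 12.3 and 24.8 FPKM, against 9.34, 27.2 and 47.2 FPKM in TAC, and the LD values again lay inside the TAC range. The difference was -0.51 ± 0.45 (limma, 95% interval -1.48 to 0.45) and -0.02 without TAC replicate 3. It was 0.71 ± 0.47 within the libraries without even small counts and 0.21 ± 0.46 with counting as a term. For Postn, Cilp and Fn1 the sign of LD against TAC therefore changed in both of these fits. The first of them holds TAC replicate 1 alone. The term of the second also rests on TAC replicate 1, with sham replicate 2, so these fits are not independent. Sparc changed sign only within the libraries without even small counts, at 0.15 ± 0.35.

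Spp1 had 1.95, 0.367 and 0.526 FPKM in LD from 24, 11 and 14 fragments, with 1 LD heart inside the TAC range of 1.29 to 3.10 FPKM and the others below it. Its difference was -0.64 ± 0.38 (limma, 95% interval -1.45 to 0.18), and -0.32 ± 0.57 within the libraries without even small counts. Fap had 3.55, 2.43 and 1.18 FPKM in LD, against 4.77, 2.60 and 4.16 FPKM in TAC, a difference of -0.55 ± 0.36 (limma, 95% interval -1.32 to 0.22), and -0.83 ± 0.51 within those libraries. Sparc had 149, 153 and 105 FPKM in LD, the lowest of which was below every TAC heart, with a difference of -0.45 ± 0.35. Fn1 was the evenest gene in LD, with 6.44, 5.66 and 6.15 FPKM, with a difference from TAC of -0.14 ± 0.34, and 0.58 ± 0.40 within those libraries. Tnc had 0.0183, 0.180 and 0.693 FPKM in LD, which spans the TAC values, and Cthrc1 had 2, 1 and 0 fragments.

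**Figure D3:**
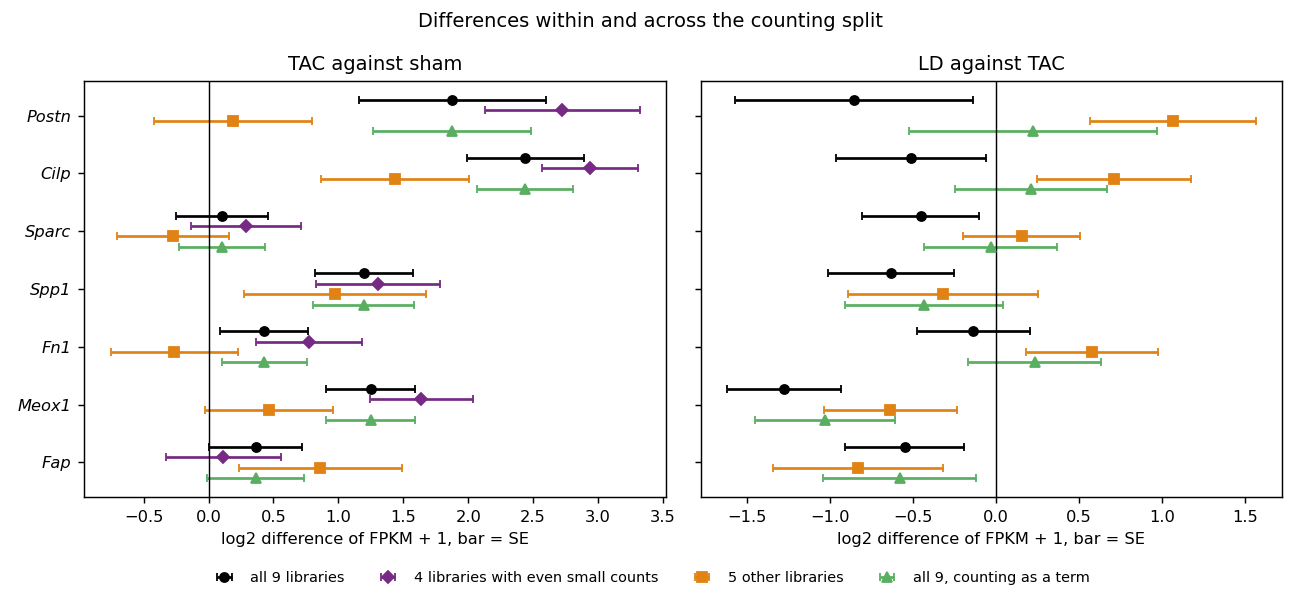
Log2 differences of FPKM + 1 with limma SEs for the 7 tested genes, in TAC against sham (left) and LD against TAC (right), for all 9 libraries, the 4 libraries with even small counts, the 5 other libraries, and all 9 with counting as a term. The 4 libraries hold no LD sample, so the right panel has no point for them. In LD against TAC, Meox1, Spp1 and Fap stay below 0 in each fit. Postn, Cilp and Fn1 lie above 0 with counting as a term and in the 5 other libraries, where TAC is replicate 1 alone. The counting term is estimated from TAC and sham libraries alone.

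LD hearts were set against sham hearts to see the operation and the decoction together. Cilp was the gene furthest from sham, at 13.1, 12.3 and 24.8 FPKM in LD and 4.20, 2.82 and 3.46 FPKM in sham, a 4.79-fold higher mean. Its log2 difference was 1.92 ± 0.45 (limma SE, 95% interval 0.96 to 2.89), with an unadjusted p of 0.000806 and an adjusted p of 0.423, and 2.15 ± 0.47 against sham replicate 2 alone, the sham library without even small counts. When only LD and sham were fitted the adjusted p was 0.0332. Fn1 also did not overlap, with 5.66 to 6.44 FPKM in LD and 4.50 to 5.20 FPKM in sham, but its difference of 0.29 ± 0.34 was smaller than its limma SE, which pools the spread of all 3 groups. Such separation upward was met by 4.47% of the genes tested and separation downward, shown by 0 of the 7, by 8.76%. At an unadjusted p under 0.05, 1 of the 7 was higher and 0 lower, where 1.52% of all genes tested were higher and 3.59% lower. Of all genes tested, 0% passed an adjusted p of 0.05 in limma's test, 581 had an unadjusted p under 0.05 and voom called 3. Of the 7, 4 had a difference above 0, where 37.2% of all genes tested did. The median of the 7 was 0.29 on the log2 scale, against -0.11 over all genes tested. The 3 comparisons share groups of samples, so they are not independent of each other.

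Across the 9 libraries Postn and Cilp ran most closely together, ordering 33 of the 36 pairs of libraries the same way. Postn and Fn1 did so in 30 pairs, while Fn1 and Fap did in 19. The points share libraries, depth and the counting split, so these counts are a description. TAC replicate 3 was the highest of the 9 libraries for 5 of the 7 tested genes and among the highest 2 for 6 of them. Over the 7 genes, the mean level relative to the sham mean was 0.36, 1.02 and 1.90 on the log2 scale in TAC replicates 1 to 3, 0.59, 0.27 and 0.52 in LD, and 0.37, -0.13 and -0.24 in sham. The 3 LD hearts lay close together, and the TAC hearts were spread from the LD level upward.

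For 5 of the 9 genes the RefSeq promoter table (GRCm38.p6) had an entry. The windows of Postn and Cilp, the pair that ran together, and of Sparc, the most abundant of the 9, are given as the 250 bases before the annotated start, on the strand of the gene. Capitals mark matches to a motif searched on both strands.
Postn promoter, chr3:54360857-54361106, plus strand: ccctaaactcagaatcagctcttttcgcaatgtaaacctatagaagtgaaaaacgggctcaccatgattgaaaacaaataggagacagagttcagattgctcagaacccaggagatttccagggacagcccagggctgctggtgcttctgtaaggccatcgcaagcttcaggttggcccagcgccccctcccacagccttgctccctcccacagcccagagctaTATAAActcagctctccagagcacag
Cilp promoter, chr9:65264930-65265179, plus strand: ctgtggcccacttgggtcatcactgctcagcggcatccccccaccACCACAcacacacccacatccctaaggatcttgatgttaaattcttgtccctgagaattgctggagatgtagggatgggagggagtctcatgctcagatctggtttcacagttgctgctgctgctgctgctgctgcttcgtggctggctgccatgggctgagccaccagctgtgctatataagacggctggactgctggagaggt
Sparc promoter, chr11:55420081-55420330, minus strand: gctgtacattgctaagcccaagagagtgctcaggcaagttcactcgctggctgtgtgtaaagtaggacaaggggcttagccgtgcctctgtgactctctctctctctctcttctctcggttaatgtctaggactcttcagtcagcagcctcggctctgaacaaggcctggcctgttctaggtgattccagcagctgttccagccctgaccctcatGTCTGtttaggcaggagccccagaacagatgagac
In Postn the capitals mark a TATA motif (TATAAA) whose first base lies 26 bases before the start. Postn has another start in the table, upstream, whose window (chr3:54359017-54359266) holds no TATAAA but a match to CAGAC. The window shown ends nearer the gene start given above. In Cilp the capitals mark a RUNX motif (TGTGGT) read on the reverse strand, and in Sparc a SMAD motif (CAGAC) read on the reverse strand. The Sparc window lies inside the gene span in GENCODE (chr11:55394500-55423183, minus strand), downstream of the gene start given there. Of 32851 promoter windows of the same length, TATAAA occurs in 12.4%, TGTGGT in 14% and CAGAC in 42.2%. The other motifs searched were AP-1 (TGANTCA, in 6.75% of windows), MCAT (CATTCC, in 12.6%) and the CArG box (in 1.47%), and none of the 8 windows of the 5 genes held one of these 3. The motifs searched do not overlap each other in the windows shown. A match of letters is no evidence of binding.

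Other genes of the matrix programme were read beside these 9. Of 67 further fibroblast and matrix genes in the table, 60 were tested. In TAC against sham none passed adjustment, 28 of the 60 were higher and 0 lower at an unadjusted p under 0.05, and 19 did not overlap upward. Over all genes tested these shares were 2.85%, 2.58% and 5.22%. The median log2 difference of the 60 was 0.71, and 55 of the 60 were above 0, where 50% of all genes tested were. Within the libraries without even small counts the median was 0.20, with 46 of the 60 above 0. Those of smallest p were Comp and Wisp2, both at an adjusted p of 0.0856 in limma, then Bgn (0.129) and Fmod (0.145). Comp, a pentameric matrix protein of cartilage and tendon, had 13.9, 30.5 and 15.7 FPKM in TAC and 1.46, 3.15 and 3.23 FPKM in sham. Bgn (biglycan), a proteoglycan that binds collagen, had 277, 530 and 407 FPKM in TAC and 158, 151 and 145 FPKM in sham. In both, TAC replicate 2 was the highest TAC heart and the groups did not overlap. Within the libraries without even small counts the differences were 1.84 ± 0.58 for Comp and 0.87 ± 0.38 for Bgn, neither past adjustment in limma.

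In LD against TAC, 12 of these 60 were lower and 1 (Cyr61) higher at an unadjusted p under 0.05, with a median of -0.45, and none passed adjustment. Over all genes tested, 6.31% were lower and 2.51% higher, with a median of -0.10. The median of the 60 was 0.12 within the libraries without even small counts and -0.14 with counting as a term. The 4 of smallest p were P4ha1 and Mmp14, a subunit of the enzyme that hydroxylates collagen and a membrane protease that cleaves it, Dcn (decorin), and Eln (elastin). P4ha1 had 8.44, 12.4 and 10.9 FPKM in LD, against 22.9, 20.8 and 24.3 FPKM in TAC, a log2 difference of -1.04 ± 0.24 (limma, adjusted p = 0.366), and -1.06 ± 0.39 within the libraries without even small counts. Mmp14 had 10.3, 15.7 and 7.73 FPKM in LD and 19.4, 26.1 and 26.9 FPKM in TAC, a difference of -1.08 ± 0.27 (limma, adjusted p = 0.400), and -0.79 ± 0.44 within those libraries. In both, as in Meox1, every LD heart lay below every TAC heart. Unlike in Meox1, every LD heart also lay below every sham heart. Sham hearts had 20.5, 14.1 and 16.0 FPKM of P4ha1 and 19.5, 17.9 and 22.5 FPKM of Mmp14, and for Mmp14 TAC overlapped sham. In LD against sham, 14 of the 60 were higher and 5 lower at an unadjusted p under 0.05, with a median of 0.31. P4ha1, Mmp14 and Eln were among the lower ones. Over all genes tested, 1.52% were higher and 3.59% lower. Comp had 15.1, 14.3 and 30.3 FPKM in LD and Wisp2 36.7, 29.1 and 40.8 FPKM, against 1.46 to 3.23 FPKM for Comp and 8.69 to 10.4 FPKM for Wisp2 in sham. Wisp2, a secreted CCN family protein, was also among the 3 genes of 6844 whose order over libraries was most like that of Cilp, beside Fibin and Itgbl1, each with 34 of 36 pairs. For Postn these were Pex19, Clic5 and Fxyd6, for Meox1 Rfk, Fkbp9 and Ckap4, each with 34 pairs, and for Sparc Cd38 (35), Osbpl1a and Elk3 (33 each).

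Receptors of these matrix proteins and the inducers of fibroblast activation came next. Of 18 tested integrins and other receptors, 1 (Anxa2) was higher and 1 (Itga3) lower in TAC against sham at an unadjusted p under 0.05, with a median of 0.01. In LD against TAC, 1 (Itga3) was higher and 2 (Cd44 and Anxa2) lower, with a median of -0.16. Over all genes tested, 2.85% were higher and 2.58% lower in TAC against sham, and 2.51% higher and 6.31% lower in LD against TAC. Cd44, a receptor of osteopontin, had a mean of 1.14 ± 0.653 FPKM in LD, against 3.58 ± 2.52 FPKM in TAC (SD, n = 3 each), a difference of -0.97 ± 0.44 (limma, adjusted p = 0.558), and -0.040 ± 0.51 within the libraries without even small counts. Of 37 tested inducers and regulators, 2 were higher and 2 lower in TAC against sham, with a median of 0.02. Tgfb3, a TGF-beta ligand, was among the higher ones, at 0.80 ± 0.28 (limma, adjusted p = 0.774), and 0.52 ± 0.47 within the libraries without even small counts. Mkl1 and Twist1 were the lower ones. In LD against TAC, 0 of the 37 were higher and 4 lower, beside the 6.31% lower over all genes, among them Smad6, Skil and Smad7, which inhibit SMAD signalling and are themselves induced by it. Smad6 had 5.97, 3.73 and 4.17 FPKM in LD, against 7.18, 15.4 and 13.8 FPKM in TAC, a difference of -1.18 ± 0.30 (limma, adjusted p = 0.400), and -0.56 ± 0.42 within the libraries without even small counts. None of the named receptors and regulators passed adjustment.

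Markers of fibroblasts and of other cells were read beside the matrix genes. All 20 resident fibroblast markers had a positive difference in TAC against sham, with a median of 0.48, and 8 were higher at an unadjusted p under 0.05, though none passed adjustment. Over all genes tested, 50% had a positive difference and 2.85% were higher at that p. Within the libraries without even small counts the median of the 20 markers was 0.44, with 17 of the 20 above 0. Tcf21, a transcription factor of quiescent cardiac fibroblasts, had 14.0, 22.1 and 19.4 FPKM in TAC and 8.73, 9.67 and 6.18 FPKM in sham. Its LD values were 9.89, 8.66 and 10.5 FPKM. In LD against TAC the median of the 20 was -0.18, with 4 above 0. At an unadjusted p under 0.05, 5 were lower and 0 higher, where 6.31% and 2.51% of all genes tested were. For 5, Tcf21 among them, every LD heart lay below every TAC heart, as for 8.14% of all genes tested. Within the libraries without even small counts the median was -0.15, with 8 of the 20 above 0. Summed over the 20 markers the level was 1182 to 1833 FPKM in LD, 1219 to 2066 FPKM in TAC and 1010 to 1184 FPKM in sham, with no marker at 0 in any library. Their mean log2 level relative to the sham mean was 0.34, 0.77 and 0.52 in TAC replicates 1 to 3. Set against the mean of these markers in the same library, Cilp was at 0.88, 1.89 and 2.91 log2 units in TAC, 1.49, 1.18 and 2.35 in LD, and 0.20, -0.21 and 0.01 in sham, so that TAC and LD did not overlap sham. Meox1 in TAC then overlapped sham, at 0.27, 0.49 and 1.35 in TAC and 0.38, 0.15 and -0.54 in sham, and at -0.49, -0.48 and 0.11 in LD it was below each TAC heart. Spp1 overlapped too, at 0.54, 0.21 and 1.20 in TAC, 1.08, -0.27 and 0.11 in LD, and -0.33, -0.08 and 0.42 in sham.

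Macrophage markers, relevant to Spp1 and Fn1, summed to 333 to 482 FPKM in LD, 366 to 541 FPKM in TAC and 323 to 484 FPKM in sham. At an unadjusted p under 0.05, 3 of the 21 tested were higher and 0 lower in TAC against sham, with a median of 0.29, and of -0.15 within the libraries without even small counts. Over all genes tested, 2.85% were higher and 2.58% lower. No macrophage marker was at 0 in TAC, and 1 of the 22 in the table was at 0 in LD replicate 3 and in sham replicate 3. Markers of valve, tendon and cartilage, to which Cilp and Comp also belong by their known sites, summed to 28.9 to 47.6 FPKM in LD, 24.2 to 63.4 FPKM in TAC and 14.6 to 22.8 FPKM in sham. Of its 5 tested genes, 3 (Fibin, Scx and Prg4) were higher in TAC at an unadjusted p under 0.05, and in each library 3 to 7 of its 13 genes were at 0. Scx is also among the further matrix genes above. Atrial markers summed to 236 to 618 FPKM in LD, 168 to 491 FPKM in TAC and 131 to 165 FPKM in sham. Most of these sums was Nppa, which is also in the cardiomyocyte list. It had 159 to 477 FPKM in LD, 91.5 to 447 FPKM in TAC and 59.7 to 88.4 FPKM in sham. The median of the 7 tested atrial markers was 0.12 in TAC against sham, with 4 above 0. LD replicate 3 stood apart in 2 genes of the atrial sarcomere, with 42.3 FPKM of Myl7 and 27.0 FPKM of Myl4, against 0 to 7.51 FPKM of Myl7 and 2.35 to 7.22 FPKM of Myl4 in the other libraries. It was also the highest LD heart for Postn, Cilp and Meox1, and the lowest of all 9 libraries for Sparc and Fap. Without it the LD against sham difference of Cilp was 1.62 ± 0.49, and the LD against TAC differences were -0.82 ± 0.49 for Cilp, -1.17 ± 0.82 for Postn and -1.45 ± 0.38 for Meox1 (limma SE). Erythroid markers summed to 1218 to 2288 FPKM in LD, 2249 to 11080 FPKM in TAC and 524 to 3352 FPKM in sham. The median of the 7 tested erythroid markers was 1.35 in TAC against sham, with 7 above 0. In LD against TAC it was -1.11, with 0 above 0. Over all genes tested, 50% and 39.6% were above 0. Within the libraries without even small counts the erythroid medians were 0.39 and -0.59. Medians of the endothelial, smooth muscle and pericyte, and cardiomyocyte lists were -0.04, 0.11 and -0.03 in TAC against sham and -0.02, 0.05 and 0.23 in LD against TAC. The epicardial (4 tested), neutrophil and lymphocyte (5) and adipocyte (1) lists held few genes above the filter, with medians of 0.27, 0.33 and 0.42 in TAC against sham. The part of any of these lists in the levels of the matrix genes was not tested.

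**Figure D4:**
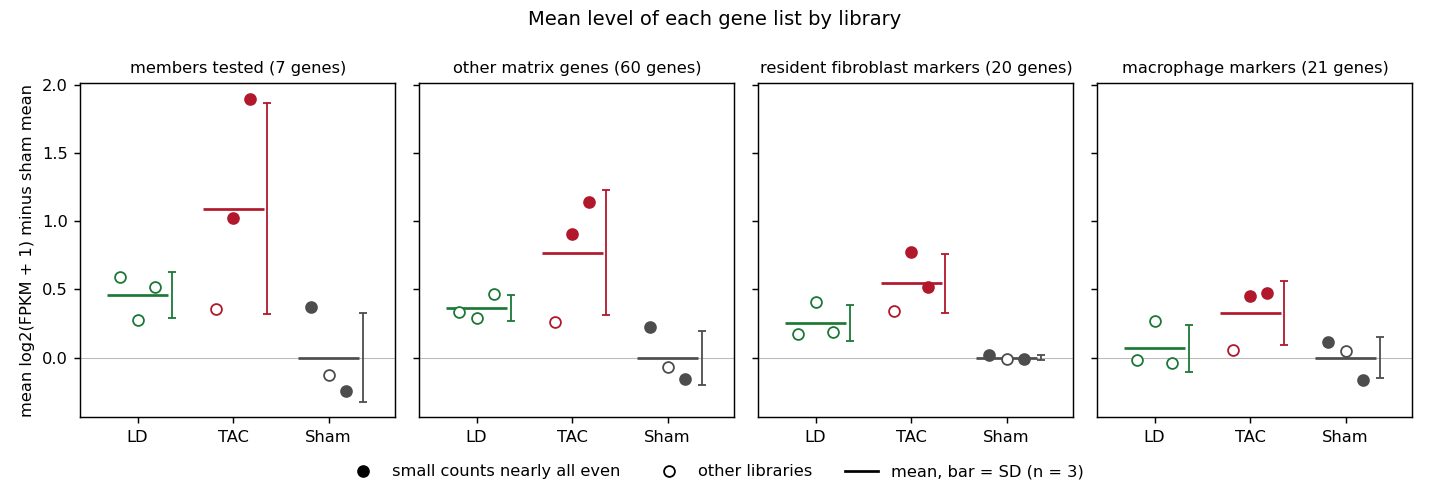
Mean log2(FPKM + 1) of 4 gene lists in each library, relative to the mean of the sham libraries, with group means and SDs (n = 3 mice each). Filled points have nearly all even small counts. The 7 matrix genes reach 1.90 in TAC replicate 3 and the resident fibroblast markers 0.52 there, and TAC replicate 1 lies near the LD libraries in both matrix lists.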

How the data were processed

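Poly-A RNA of mouse hearts was measured in 3 LD, 3 TAC and 3 sham libraries. Per the submitters' processing notes, CASAVA 1.8, fastp 0.20.0, HISAT2 2.1.0, Cufflinks 2.2.1, HTSeq 0.7.2 and DESeq were used with build GRCm38. The tool behind each value and the gene annotation are not stated in the sources used here. The authors deposited FPKM values of 21989 symbols, 5727 of them at 0 everywhere. All 16262 others gave whole fragments within 0.001, which set the library totals. Counting limits use 3 fragments and cover counting error only. They take a recovered fragment as the same unit in libraries with and without even small counts, which is not known. Coordinates and exon overlaps come from GENCODE M21 (GRCm38).

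Values were analysed as log2(FPKM + 1), and 11380 genes with at least 1 FPKM in at least 3 libraries were tested with limma 3.58.1 (R 4.3.3), with the 3 groups fitted together on 6 residual degrees of freedom, trended empirical Bayes variances, two-sided p and Benjamini-Hochberg adjusted p under 0.05. An exact permutation test of 3 against 3 cannot go below 0.1. Nothing says whether the mice came from separate litters or batches, so p-values measure the spread between these mice. Same-numbered samples did not deviate together. The members and the 14 gene lists beside them were chosen with earlier results of these data known. Some lists share genes, so their counts are not independent. Scx is in the matrix and valve lists, Mfap5 in the matrix and resident fibroblast lists, and Nppa in the cardiomyocyte and atrial lists. All 9 members are named, and of each other list up to 4 tested genes of smallest p. Cyr61 was named after its value was seen. Among the other lists, 1 gene that this rule names is not reported here.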

Additional observations from a re-analysis of the deposited data

How the results depend on the processing

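Of 463 repeats over the 21 results for a single gene in a comparison, 429 kept their direction and their side of the threshold, 28 changed sign and 6 passed it. Splits by counting were chosen after seeing the data; all other settings were set with the tests. The number of genes called in TAC against sham was 0, but 2 with a mean FPKM of at least 5, 9 with library weights, 4 with voom on recovered fragments, 6 in the libraries with even small counts alone, and 0 to 13 when 1 library was left out (13 without TAC replicate 1). In LD against sham it was 0, but 3 with a mean FPKM of at least 5, 10 with only those 2 groups fitted, 135 with library weights, 3 with voom, and 0 to 8 when 1 library was left out (8 without TAC replicate 1). In LD against TAC it was 0 in each setting. Cilp passed in TAC against sham with library weights (2.50, adjusted p = 0.0110), without TAC replicate 1 (3.05) and in the libraries with even small counts (2.94), and in LD against sham with 2 groups (1.92), library weights (1.70, adjusted p = 0.00734) and without TAC replicate 1 (1.92, adjusted p = 0.0470). Adjusted p of Cilp in TAC against sham ranged from 0.00464 to 1.0. The median of the members was 0.47 in TAC against sham in the libraries without even small counts, and in LD against TAC 0.15 there and -0.034 with counting as a term.

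Signs also changed. Leaving out 1 library gave -0.18 to 0.51 for Sparc in TAC against sham, -1.82 to 0.17 for Postn and -0.50 to 0.28 for Fn1 in LD against TAC, and, in LD against sham, -0.64 to 0.051 for Sparc, -0.31 to 0.17 for Meox1 and -0.43 to 0.11 for Fap. Without both TAC replicate 3 and LD replicate 3, Sparc in TAC against sham was -0.14, Fn1 in LD against TAC 0.27 and Fap in LD against sham 0.097. In the libraries without even small counts, Sparc and Fn1 were both -0.27 in TAC against sham, Postn was 1.07, Cilp 0.71, Sparc 0.15 and Fn1 0.58 in LD against TAC, and Fap 0.028 in LD against sham. With counting as a term, Postn was 0.22, Cilp 0.21 and Fn1 0.23 in LD against TAC, and Sparc 0.070 and Meox1 0.22 in LD against sham. Meox1 in LD against sham was 0.085 with median-of-ratios scaling and 0.00049 with voom. The cause was not tested.

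The replicate numbers are shared by number only (correlations of deviations -0.24, 0.15 and -0.19 between TAC and sham), and with the replicate block 0 genes were called in each comparison and Cilp in TAC against sham had an adjusted p of 0.103. As a term, the counting split itself called 0 genes in limma's test, with 221 (1.94% of the genes tested) at an unadjusted p under 0.05. Libraries with even small counts were higher by 1.62 for Postn (unadjusted p = 0.0262) and 1.09 for Cilp (unadjusted p = 0.0165), both at an adjusted p of 0.9996. The other members had 0.63 (Sparc), 0.55 (Fn1), 0.37 (Meox1), 0.30 (Spp1) and -0.048 (Fap). Their unadjusted p in limma's test lay between 0.0928 and 0.906. The test of edgeR on recovered fragments was not run. Depth limits Tnc, Cthrc1 and Spp1 most.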
